A study of Mus musculus with 4 samples.

Results

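Cdk8, Gm15564, Gm42418, AY036118, Lars2, Camk1d and Polr2l are 7 mouse genes that were picked out as genes whose unique molecular identifiers (UMIs) are known to include ribosomal or off-target reads. They are 7 of the 32285 genes counted, and all 7 were found by symbol in each of the 4 count matrices. They were selected on their UMIs in these same libraries, with their difference at 12 days post-amputation (dpa) already in view, so the levels below describe that difference and test nothing. The question was whether the difference was shared by all cell classes.

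The data were single-cell 3′ RNA libraries of the mouse digit at the middle phalanx (P2), a level that does not regenerate and heals with fibrosis. All 4 libraries came from wild-type FVB/NJ mice, 8 weeks old and labelled as pooled males and females. The groups were unamputated, homeostatic digit and fibrosing digit at 12, 17 and 28 dpa, and no group carried a transgene or received a drug. Each group held 1 library, so no difference has a replicate check and no test was possible. Intervals below are 95% intervals of counting error only, and UMI sums of 1 library are not independent animals.

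Cdk8 encodes the kinase of the Mediator kinase module, which links transcription factors to RNA polymerase II. Polr2l encodes a small subunit shared by the nuclear RNA polymerases, Lars2 the mitochondrial leucyl-tRNA synthetase, and Camk1d a calcium/calmodulin-dependent protein kinase. Gm42418 and AY036118 are long noncoding genes annotated inside a ribosomal DNA fragment, and Gm15564 is an antisense noncoding gene. In droplet libraries primed on poly(A), counts of such genes can come from ribosomal RNA or from stretches of A inside a transcript, and not from messenger RNA of the gene.

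Positions are those of GENCODE M21 on GRCm38. Gm42418 lies at chr17:39846958-39848788 on the plus strand. AY036118 lies at chr17:39847113-39848035 on the minus strand, so all of its 923 bases are inside Gm42418 and read the opposite way. An annotated ribosomal RNA gene, CT010467.1, covers both on the minus strand at chr17:39846353-39848827, and 923 of 923 bases of AY036118 match its transcript at 100% identity on the same strand. CT010467.1 was not among the genes counted. The first 40 bases of AY036118 and the same bases on the strand of Gm42418, at chr17:39847996-39848035, are shown because inside the 923 bases of overlap counts for these genes are told apart only by strand.
AY036118: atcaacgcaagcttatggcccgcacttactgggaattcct
Gm42418: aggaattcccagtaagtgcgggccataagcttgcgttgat

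Gm15564 lies at chr16:35966752-35983230 on the minus strand and overlaps Parp9 and Kpna1, which are on the plus strand. Lars2 lies at chr9:123366927-123462666 on the plus strand. A stretch in exon 2 of 4 of a Gm15564 transcript, at chr16:35981725-35981795, is shared with the last exon of Lars2, exon 21, at chr9:123462049-123462119. Over the 71 bases of this stretch the pair differed at 1 position, T52A. It is counted from 1 at the 5′ end of the stretch with the base of Gm15564 first. The stretch in Gm15564 and 30 bases of the Lars2 3′ UTR at chr9:123462085-123462114 are shown, with the differing base in capitals. They are shown because reads from this stretch are nearly the same for both genes. The stretch is known as part of large-subunit ribosomal RNA, which was not matched here.
Gm15564: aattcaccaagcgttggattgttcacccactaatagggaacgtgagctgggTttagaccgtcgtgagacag
Lars2: ggaacgtgagctgggAttagaccgtcgtga

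Cdk8 lies at chr5:146231230-146302874 on the plus strand and contains the processed pseudogene Gm15739. Camk1d lies at chr2:5293457-5714515 on the minus strand, and Polr2l at chr7:141471860-141475132 on the minus strand. A run of at least 12 A was searched in annotated transcripts, on the transcript strand. It was found in 2 of the 7 genes, Cdk8 and Camk1d, against 10.2% of the 32158 counted genes with a transcript in this annotation. The same length of T, which is the run on the other strand, was found in 12.6% of those genes and in Cdk8 among the 7. The longest runs, in capitals, were 15 A in a retained-intron transcript of Cdk8 at chr5:146259712-146259726, in neither coding sequence nor UTR of any transcript, and 13 A in the 3′ UTR of Camk1d at chr2:5293677-5293689. They are shown within the windows chr5:146259697-146259741 and chr2:5293668-5293697. Introns were not searched, and a match shows only that the letters are there.
Cdk8: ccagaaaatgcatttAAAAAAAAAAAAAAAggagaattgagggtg
Camk1d: aataaagtAAAAAAAAAAAAAgtaaaagaa

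After filtering, 10399, 6510, 7919 and 10119 cells remained in the unamputated, 12, 17 and 28 dpa libraries, with medians of 11600, 9544, 8501 and 6657 UMIs per cell. The library pairs shared 19 to 87 cell barcodes. In the 12 dpa library, 3530 cells were female by Xist and 0 were male by Y-linked genes, while the unamputated, 17 and 28 dpa libraries held 8088, 4617 and 4757 male cells and at most 1 female cell. The remaining cells of each library were undetermined. The labels name pooled sexes, so the library labelled 12 dpa goes against its label in this respect, as do the other 3, and time after amputation, sex and library cannot be told apart in any comparison with it.

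Over all kept cells, all 7 genes stood higher in the 12 dpa than in the unamputated and the 28 dpa library by more than counting error, from a fold of 1.07 for AY036118 to 3.59 for Cdk8 against the unamputated library. At this depth small differences pass that criterion, and 27.9% and 37.2% of all genes of at least 20 CPM were also higher beyond it than in the unamputated and the 28 dpa library. Levels are given as CPM, the UMIs of a gene per 1000000 UMIs of the cells summed, and a gene is called past 2-fold at a log2 ratio of 1 with a pseudocount of 1 CPM. The CPM of different genes are not per length, so an order of genes by CPM is an order of UMIs and not of transcripts.

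Cdk8 had a level of 363 CPM in unamputated digit, and levels of 1304, 796 and 396 CPM at 12, 17 and 28 dpa. The 12 dpa library was the highest, with an interval of 1296 to 1312, and the 4 intervals did not overlap. Its log2 ratios at 12 dpa were 1.84, 0.71 and 1.72 against unamputated, 17 dpa and 28 dpa. Per kept cell this was 4.96, 14.9, 7.84 and 3.08 UMIs of Cdk8.

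Gm15564 followed the same order of the 12, 17 and 28 dpa and unamputated libraries, at 99.2, 82.0, 54.5 and 35.2 CPM. Its log2 ratios at 12 dpa were 1.47, 0.27 and 0.85 to the unamputated, 17 and 28 dpa libraries. Lars2, which shares the 71-base stretch, was at 412, 877, 715 and 462 CPM in the unamputated, 12, 17 and 28 dpa libraries. Its log2 ratios at 12 dpa were 1.09, 0.29 and 0.92. Both genes were lowest in the unamputated library, with the 17 dpa library close below the 12 dpa library.

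Gm42418 had levels of 17442, 33275, 23417 and 17355 CPM in the unamputated, 12, 17 and 28 dpa libraries, with the unamputated and 28 dpa libraries nearly level. Its log2 ratios at 12 dpa were 0.93, 0.51 and 0.94. AY036118, inside Gm42418 on the other strand, was at 1211, 1302, 1596 and 912 CPM and was highest at 17 dpa, not at 12 dpa. Its log2 ratios at 12 dpa were 0.10, -0.29 and 0.51.

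Camk1d was at 1178, 2297, 1590 and 949 CPM in the unamputated, 12, 17 and 28 dpa libraries, with log2 ratios of 0.96, 0.53 and 1.27. Polr2l was at 26.2, 32.4, 15.3 and 22.4 CPM, so its 17 dpa library was the lowest. Its log2 ratios were 0.29, 1.04 and 0.51, and its largest ratio was to the 17 dpa library, where for the other 6 genes it was to the unamputated or the 28 dpa library.

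**Figure D1:**
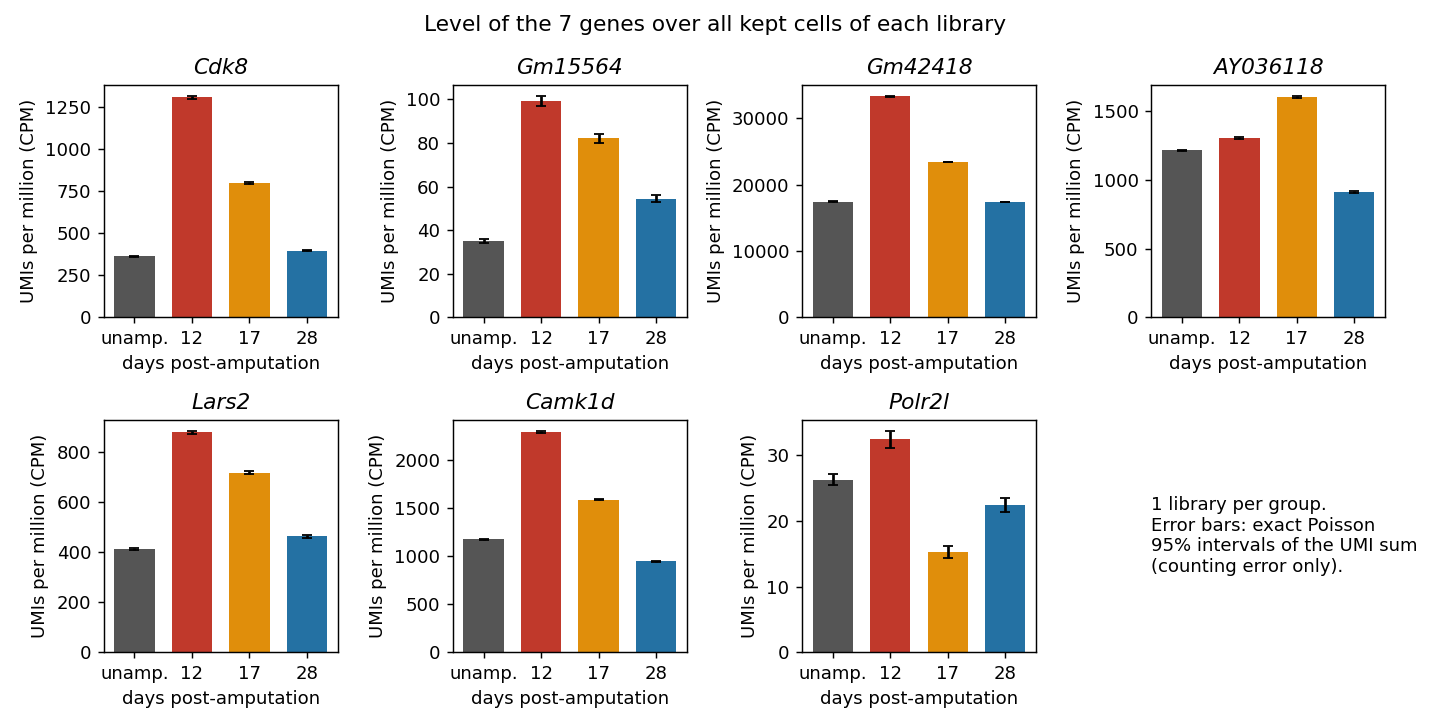
Level of each gene in CPM over all kept cells (vertical axis, from 0) in the 4 libraries (bars), with exact Poisson 95% intervals. 6 of 7 panels are highest at 12 dpa; AY036118 is highest at 17 dpa, at 1596 CPM.

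Against the unamputated library, 3 of 7 genes were past 2-fold higher at 12 dpa (Cdk8, Gm15564 and Lars2), where 0.839% of 7743 genes of at least 20 CPM were. The rule used this contrast, so nothing is read from the count. In cells of at least 1000 genes and 3000 UMIs with at most 5% mitochondrial UMIs, Lars2 was at 0.98 and Gm42418 past 2-fold in its place. Against 17 dpa, 1 of 7 (Polr2l) was past 2-fold higher, with 1.21% of all genes, and against 28 dpa 2 of 7 (Cdk8 and Camk1d), with 3.65%. Between 17 dpa and unamputated, 2 of 7 were past 2-fold in either direction (Cdk8 at 1.13 and Gm15564 at 1.20), with 2.99% of all genes. Between 28 dpa and unamputated, 0 of 7 were, with 7.7%. These comparisons share libraries and are not independent of each other. The median of all genes lay at -0.24 at 12 dpa against unamputated, and that of the 7 genes at 0.96. Scaling by the median of ratios, which takes a shift of -0.21 out of all log2 ratios of this contrast, put 5 of 7 past 2-fold, with 1.92% of all genes.

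The difference at 12 dpa was found in every cell class for 5 of the 7 genes, with very unequal sizes. Cells were clustered on variable genes, and clusters were named as classes by the marker set they resemble. In 3 clusters, markers of another class led the genes or were detected in a larger share, and these clusters kept their numbers. The cells of these clusters were led by Krt15, Krt17 and Lhx2 (cluster 3), by Prss35, Crabp1 and Spock3 (cluster 16) and by Cilp2, Chad and Comp (cluster 20). The 7 genes took no part in the clustering. In the 16 classes or clusters with at least 50 cells in both libraries, Cdk8, Gm15564, Gm42418, Lars2 and Camk1d were higher at 12 dpa than in the unamputated library in 16 of 16, each beyond its counting interval, as were 0.672% of all genes.

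Cdk8 was past 2-fold in 16 of the 16, from a log2 ratio of 1.28 in cluster 20 to 4.25 in neutrophil-like cells, with a median of 2.15. Neutrophil-like cells held 122 CPM of it in the unamputated library and 2346, 708 and 525 CPM at 12, 17 and 28 dpa. Macrophage-like cells held 286, 1402, 746 and 373 CPM of Cdk8 in that order of libraries. Fibroblast-like cells held 339, 1049, 678 and 321 CPM, with the unamputated and 28 dpa libraries close together.

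The largest ratio rests on a class whose clusters differed between libraries. Neutrophil-like cells of the unamputated library came from clusters 7 and 14, and those of the 12 dpa library from cluster 14 alone, where the log2 ratio of Cdk8 was 3.72. In this class 17.7% of all genes were past 2-fold higher, where the other 15 had 0.358% to 4.49%. The next largest ratio of Cdk8, 2.81 in T or NK-like cells, came from cluster 17 in each library, from 408 CPM in the unamputated to 2875 CPM in the 12 dpa library. Macrophage-like cells of the 12 dpa library were nearly all in cluster 0 and those of the 28 dpa library mostly in cluster 24, and fibroblast-like cells lay mostly in cluster 15 at 12 dpa and cluster 10 in the unamputated library. Cluster by cluster, Cdk8 was past 2-fold higher in 20 of 20. Gm15564, Lars2 and Camk1d were higher in 20 of the 20, Gm42418 in 19, AY036118 in 16 and Polr2l in 9.

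**Figure D2:**
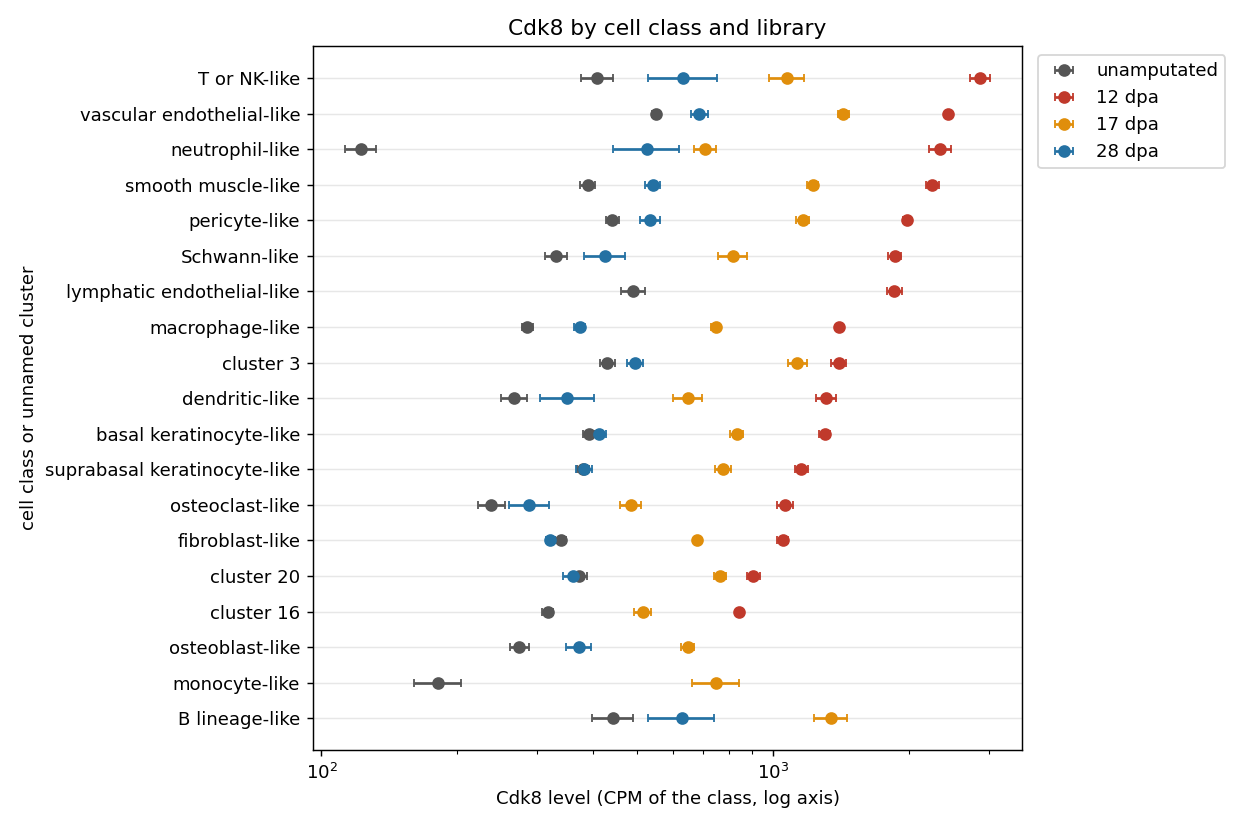
Cdk8 level (CPM of the class, log axis) for each class or unnamed cluster of at least 50 cells, with 1 point per library and exact Poisson 95% intervals. The 12 dpa point is the rightmost wherever it is shown, from 842 CPM in cluster 16 to 2875 CPM in T or NK-like cells.

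Gm15564 was past 2-fold higher in 14 of the 16, with its lowest log2 ratio, 0.75, in cluster 3 and its highest, 3.80, in neutrophil-like cells. In cluster 14 alone, the part of that class with cells in both libraries, its ratio was 2.68. Lars2 was past 2-fold in 10, from 0.45 in suprabasal keratinocyte-like to 3.05 in neutrophil-like cells, where cluster 14 alone gave 2.43. Camk1d was past 2-fold in 8, from 0.37 in macrophage-like to 2.26 in neutrophil-like cells. Cluster by cluster its highest ratio was 1.72, in cluster 26. The keratinocyte-like classes and cluster 3 were the 3 lowest for both Gm15564 and Lars2.

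Gm42418 was past 2-fold in 12 of the 16, and the keratinocyte-like classes hardly moved. In basal keratinocyte-like cells it was at 37522 CPM in the unamputated library and 38367 at 12 dpa, a log2 ratio of 0.03, with 44804 at 17 dpa and 19267 at 28 dpa. In suprabasal keratinocyte-like cells the ratio was 0.11 and in cluster 3 it was 0.16. In neutrophil-like cells it was at 7288 CPM in the unamputated library and 52737 CPM at 12 dpa, from unlike clusters. In cluster 14 alone the log2 ratio of Gm42418 was 2.01. The unamputated level was highest in basal keratinocyte-like cells among the 14 classes in all 4 libraries and lowest in dendritic-like cells, at 6957 CPM.

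AY036118 was past 2-fold higher in 2 of the 16, neutrophil-like at 1.96 (1.38 in cluster 14 alone) and T or NK-like at 1.11. Over all pairs of class and gene of at least 20 CPM, 17.0% were higher by more than counting error. AY036118 was so in 12 classes and lower in 3, the basal keratinocyte-like class at -0.47, the suprabasal at -0.45 and cluster 3 at -0.31. Polr2l was past 2-fold in macrophage-like cells at 1.39 and dendritic-like cells at 1.10, and its median over the 16 was -0.04. It was higher by more than counting error in 3 classes and lower in 5. Its levels in macrophage-like cells were 41.0, 109, 34.0 and 30.6 CPM in the unamputated, 12, 17 and 28 dpa libraries. In osteoclast-like cells they were 46.6, 75.0, 48.0 and 43.9 CPM. In smooth muscle-like cells they were 17.8, 8.51, 8.72 and 13.6 CPM, so Polr2l stood lower at 12 dpa than in the unamputated library there.

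**Figure D3:**
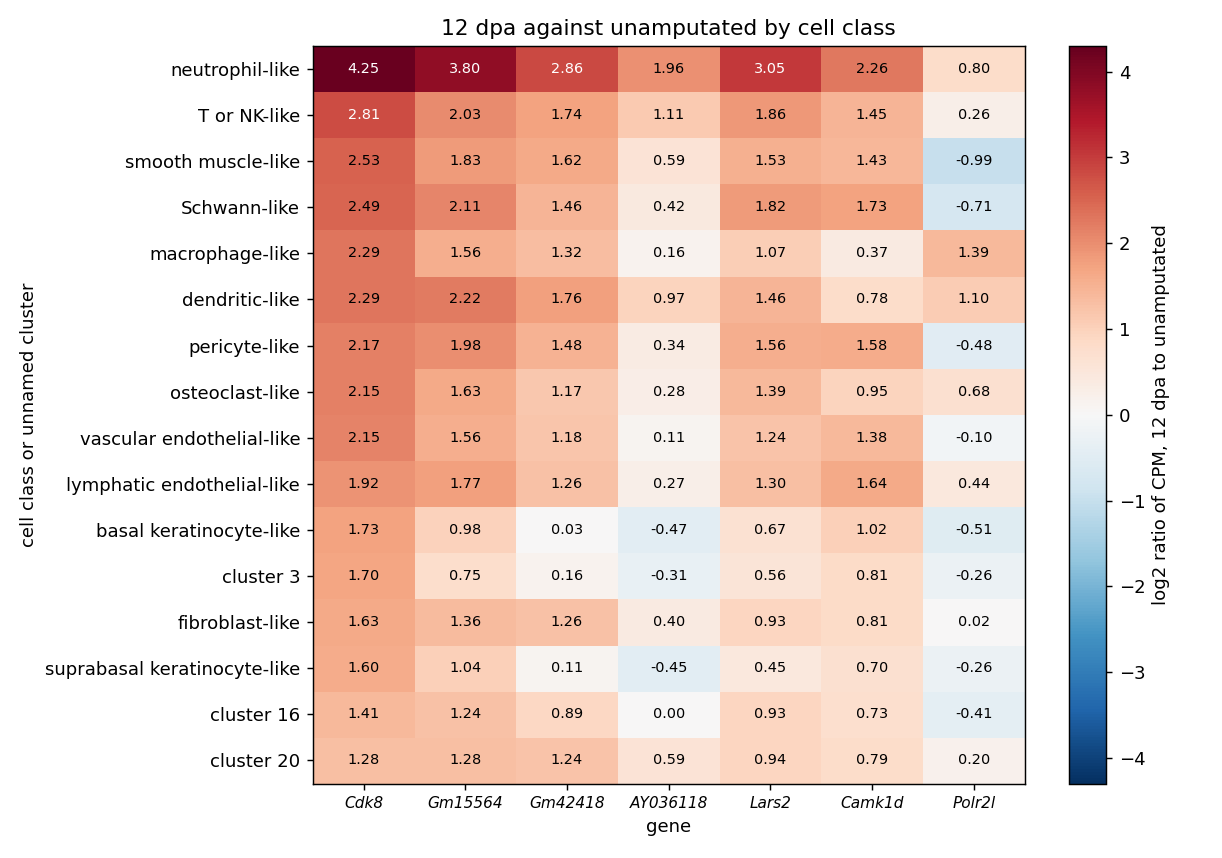
Log2 ratio of CPM at 12 dpa to unamputated (colour and printed value) for 16 classes or unnamed clusters (rows) and the 7 genes (columns). The Cdk8 column is above 1 in each row, and the AY036118 and Polr2l columns hold values on both sides of 0.

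Over classes, 64 of 112 pairs of class and gene were past 2-fold higher at 12 dpa against the unamputated library. Over all pairs of class and gene of at least 20 CPM in either library it was 1.97%. Pairs of the 7 genes had no such floor and needed only more than 3 UMIs in either library. The same floors hold for the other shares of pairs given here. Against 17 dpa it was 21 of 105 pairs, with 2.89% of all, and against 28 dpa 41 of 98, with 4.36% of all. Cdk8 was past 2-fold higher in 5 of 15 classes against 17 dpa and in 14 of 14 against 28 dpa. For Polr2l the order was the other way, with 7 of 15 against 17 dpa and 4 of 14 against 28 dpa. Of these 4, neutrophil-like cells had 0 UMIs of Polr2l and T or NK-like cells 1 UMI at 28 dpa, so those ratios depend on the pseudocount or on a single count. Cluster 3 gave the lowest value against 17 dpa for Gm15564 (-0.93), Gm42418 (-0.77), AY036118 (-0.97), Camk1d (-0.30) and Lars2 (-1.001). Lars2 was there only just past 2-fold lower. These 5 genes were thus all lower at 12 dpa than at 17 dpa in cluster 3.

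In the 14 classes or clusters with at least 50 cells in every library, Cdk8 was highest at 12 dpa in 14, Camk1d in 13, Gm42418 in 11, Gm15564 in 10, Lars2 in 10, Polr2l in 6 and AY036118 in 4. AY036118 was highest at 17 dpa in the other 10. Polr2l was highest in the unamputated library in 7. Of 7993 genes of at least 20 CPM, 7 (0.0876%) were highest at 12 dpa in all 14, and Cdk8 was the only one of the 7 chosen genes among them. The other 6 were Xist, Tsix, Mfap4, mt-Atp8, Snrnp27 and Pabpc4, named here after their values were seen.

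Past 2-fold higher at 12 dpa than unamputated in all 16 were 3 of 7743 genes, Cdk8, Xist and Tsix. Xist, expressed from the inactive X chromosome of females, was at 458 CPM at 12 dpa and at most 0.154 CPM elsewhere. Within the 12 dpa library Cdk8 was at 1283 CPM in female cells and 1335 CPM in undetermined cells. Between cells of undetermined sex of the 12 dpa and the unamputated library, the fold of Cdk8 was 3.43, against 3.59 over all kept cells. Called cells were female at 12 dpa and nearly all male in the unamputated library. The fold between undetermined cells therefore cannot weigh the part of sex. Undetermined cells had medians of 6565 UMIs in the unamputated and 8528 in the 12 dpa library, below the 13349 of male and 10507 of female cells there. The part of sex in the difference was not tested.

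The balance of the opposite-strand pair differed at 12 dpa in the same direction in every class. There were 0.0694 UMIs of AY036118 per UMI of Gm42418 in the unamputated library, 0.0391 at 12 dpa, 0.0682 at 17 dpa and 0.0526 at 28 dpa. The ratio at 12 dpa was the lowest of the 4 libraries in 14 of 14 classes or clusters, and its interval lay below that of the unamputated library in 14 of 14. It ranged from 0.0315 in pericyte-like cells to 0.0518 in cluster 20 at 12 dpa, and from 0.0517 in basal keratinocyte-like to 0.102 in macrophage-like cells in the unamputated library. Gm42418 and AY036118 thus did not keep 1 ratio across libraries.

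**Figure D4:**
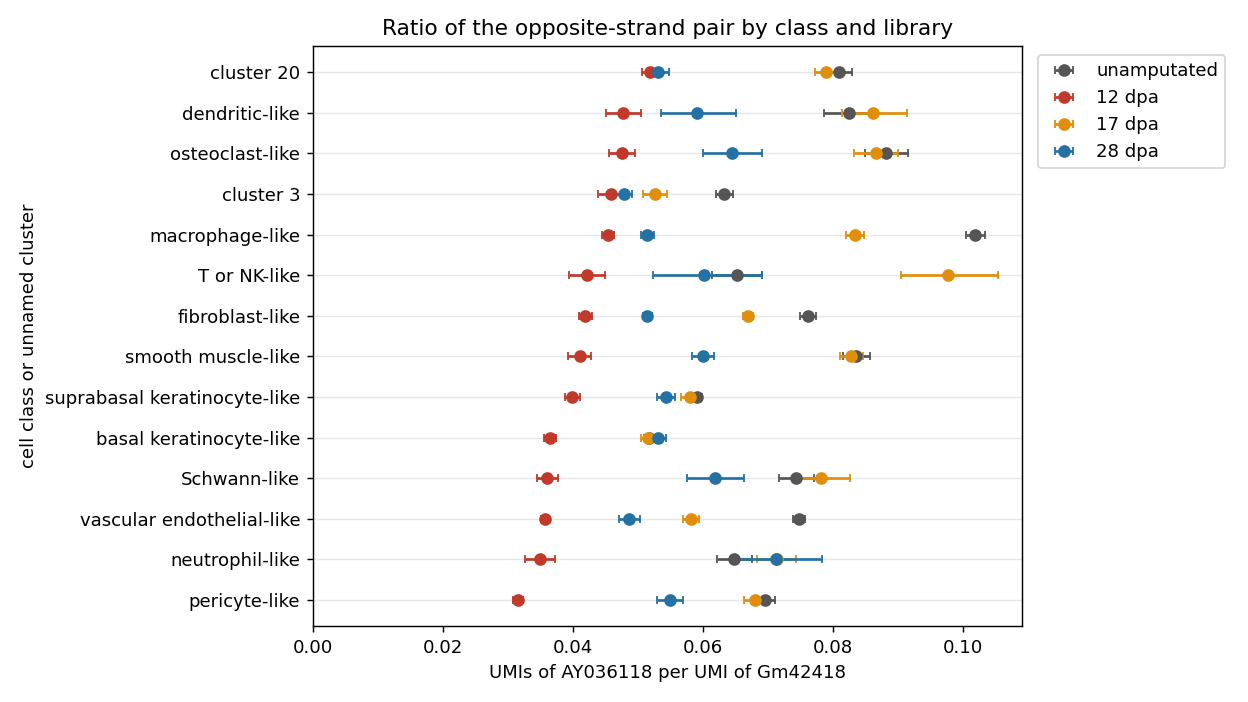
UMIs of AY036118 per UMI of Gm42418 (horizontal axis, from 0) for 14 classes or unnamed clusters, with 1 point per library and its 95% interval. The 12 dpa points lie between 0.0315 and 0.0518 and are the leftmost in each row.

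The pair with the shared 71-base stretch behaved otherwise. There were 0.0854 UMIs of Gm15564 per UMI of Lars2 in the unamputated library, and 0.113, 0.115 and 0.118 at 12, 17 and 28 dpa. The 12 dpa interval lay above the unamputated one in 9 of 14 classes and in none below. The ratio was lowest in vascular endothelial-like cells in each of the 4 libraries, at 0.0637 in the unamputated and 0.0806 at 12 dpa.

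Over all kept cells, level fell with the depth of the cell for 6 of the 7 genes. The depth bins pool all classes, and classes differed in depth. At 12 dpa the median was 1762 UMIs in neutrophil-like and 15623 UMIs in suprabasal keratinocyte-like cells. Depth and class mix were therefore not told apart in these bins. In all 24 combinations of these genes and libraries, CPM fell from cells of 1000 to 3000 UMIs through those of 3000 to 10000 to those of 10000 or more. The first bin stood 1.48 to 3.34 times above the last. The share of all genes that fell likewise is not given here, so nothing is read from the count. Cdk8 at 12 dpa was at 2923, 2299 and 943 CPM in these bins, and in the unamputated library at 495, 493 and 335 CPM. Polr2l fell in the 12 dpa library alone, from 57.8 to 51.0 to 25.8 CPM. It rose with depth in the unamputated library, from 13.3 to 19.9 to 27.7 CPM, and in the 28 dpa library, from 16.7 to 22.2 to 23.0 CPM. At 17 dpa it was at 8.77, 16.5 and 14.9 CPM.

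Median depth was lower at 12 dpa than in the unamputated library in 16 of 16 classes, at 0.527 to 0.834 of it. Against 17 dpa it was lower at 12 dpa in 7 of 15 classes, at 0.721 to 1.35 of it, and against 28 dpa in 0 of 14, at 1.09 to 1.75. The part of depth or of class mix in the differences was not tested. Within a depth bin, the 12 dpa library stood above the unamputated one for 7 of 7 genes in both bins under 10000 UMIs and for 6 of 7 in the deepest, where Polr2l was 0.929-fold. In these bins 55.8%, 37.6% and 31.9% of all genes stood higher. The number at 2-fold or more was 6, 6 and 2 from the shallowest to the deepest bin, where 13.0%, 2.16% and 1.28% of all genes were. The fold of Cdk8 was 5.91, 4.66 and 2.81.

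**Figure D5:**
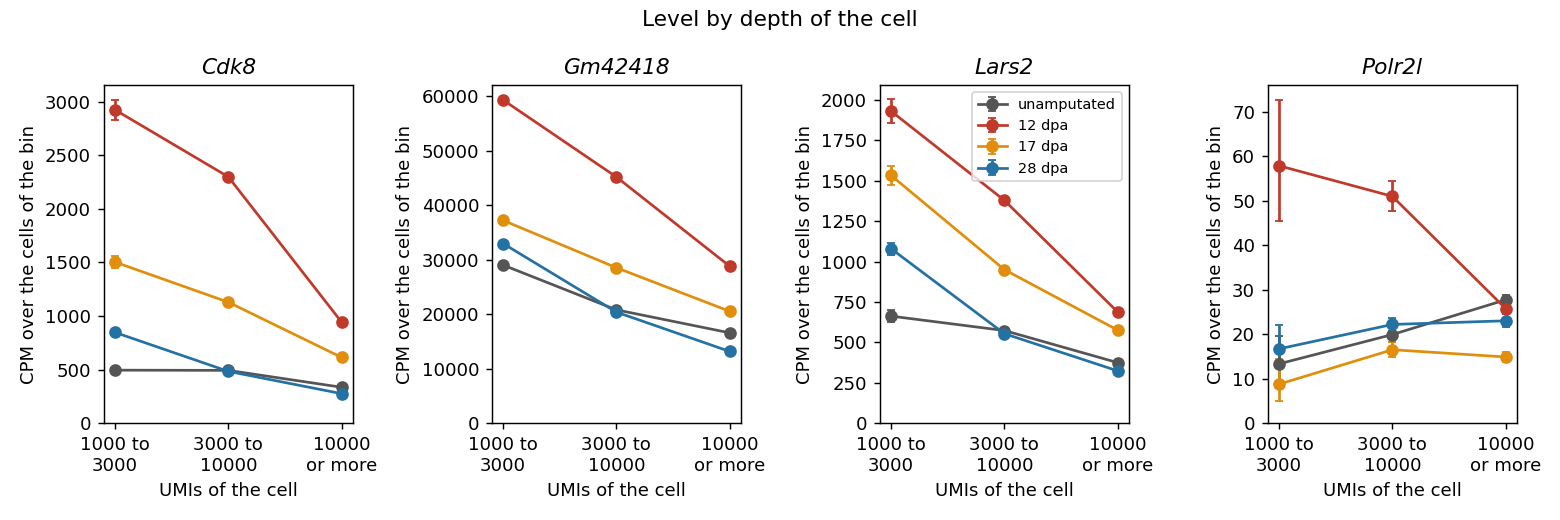
CPM (vertical axes, from 0) of Cdk8, Gm42418, Lars2 and Polr2l in kept cells of 3 depth bins (horizontal axis, UMIs of the cell), with 1 line per library and exact Poisson 95% intervals. Cdk8, Gm42418 and Lars2 fall with depth in each library, and the 12 dpa line is the top line for Cdk8 in each bin.

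In barcodes that the filters removed, 6 of the 7 genes mostly took a larger share of the UMIs. In barcodes with over 10% mitochondrial UMIs, the CPM was above that of kept cells in 23 of 24 combinations of library and gene other than Polr2l, by up to 5.32-fold for Lars2 at 17 dpa. The exception was AY036118 at 12 dpa, at 0.847-fold. Polr2l was lower there in each library, by a fold of 0.390 to 0.476. Per barcode the UMIs were not always more, with 3.91 of Cdk8 in these barcodes of the unamputated library and 4.96 in its kept cells. In barcodes under 1000 UMIs, Cdk8 was at 1623, 5304, 3602 and 1998 CPM in the unamputated, 12, 17 and 28 dpa libraries and Gm42418 at 60392, 113558, 53460 and 55744 CPM. The 12 dpa library was thus the highest for both genes in barcodes under 1000 UMIs. In barcodes with over 10% mitochondrial UMIs the 17 dpa library stood above the 12 dpa library for 5 genes, Gm15564, Gm42418, AY036118, Lars2 and Camk1d, with Gm42418 at 66261 and 51291 CPM. Shares of all genes are not given here for these barcodes, so nothing is read from the counts of 23 combinations and 5 genes.

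Among kept cells, the size of the difference varied with the mitochondrial share of the cell, and not in 1 direction for all genes. The 12 dpa library stood above the unamputated one for 6 of 7 genes in cells of up to 2% mitochondrial UMIs (not AY036118), for 7 of 7 at 2 to 5% and for 5 of 7 at 5 to 10% (not AY036118 and Polr2l), where 51.2%, 30.4% and 35.4% of all genes stood higher. From the lowest to the highest of these bins the fold was 1.28, 1.78 and 2.96 for Camk1d, 1.51, 2.09 and 2.97 for Lars2, and 2.33, 3.07 and 3.27 for Gm15564. It was 3.59, 3.49 and 4.46 for Cdk8, lowest in the middle bin. Gm42418, at 1.54, 2.19 and 2.02, and AY036118, at 0.894, 1.22 and 0.984, were highest in the middle bin. Polr2l ran the other way, at 2.23, 1.29 and 0.731. The part of free RNA or cell quality in the class values was not tested.

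Across the 69 combinations of class and library with at least 50 cells, the log2 levels of Cdk8, Gm15564, Gm42418, AY036118, Lars2 and Camk1d had pairwise Pearson r between 0.65 (Cdk8 with AY036118) and 0.92 (Gm42418 with Lars2). Polr2l had r between -0.23 and -0.11 with each of them. These points share libraries, depth and classes, so r is a description. Of other genes of at least 20 CPM, those most alike to Cdk8 included Cmss1 (0.91), Xist (0.72), Gphn (0.65) and Lrp1b (0.59). Those most alike to Gm42418 included Cmss1 (0.80), Gphn (0.80), Il31ra (0.67) and Xist (0.59). Cmss1 was at 1213, 3081, 2594 and 1097 CPM in the unamputated, 12, 17 and 28 dpa libraries, the order of Cdk8 except that its 28 dpa library, not the unamputated one, was the lowest.

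Of the 6 gene lists set beside these genes, 5 hold families or regions to which those of the 7 other than Gm15564 belong. The last list holds the mitochondrial genes, to which none belongs. Over the 6 lists, 0 of 53 genes of at least 5 CPM other than the 7 were past 2-fold in either direction at 12 dpa against unamputated, where 3.67% of all genes of that level were. In a list of this size that is a count near the share of all genes, and nothing is read from it. With 1 library a group no tool gave a p-value. The partners of Cdk8 in the Mediator kinase module had a median log2 ratio of -0.40, with 0 of 6 past 2-fold. The highest in level of these, Med13l and Med13, were at -0.37 and -0.75, the paralog kinase Cdk19 at -0.59 and its cyclin Ccnc at -0.44, where Cdk8 was at 1.84. These 4 and Med12l, at -0.35, lay below the -0.24 of all genes, and Med12, at -0.07, lay above it.

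The other RNA polymerase II subunits had a median of 0.35 and ran from -0.36 to 0.78, a range that holds the 0.29 of Polr2l. Polr2f and Polr2j, small subunits like Polr2l, were at 0.75 and 0.76. The other mitochondrial aminoacyl-tRNA synthetases had a median of -0.23, with Fars2 at -0.57 and Iars2 at -0.27, where Lars2 was at 1.09. The other calmodulin-dependent kinases had a median of -0.21, with Camk2d at -0.33 and Camk1 at 0.13, where Camk1d was at 0.96.

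In the list drawn up for the ribosomal DNA region and nuclear RNAs, the median was 0.00 to 2 decimals. The nuclear RNA Malat1 was at 17322, 17528, 18410 and 18591 CPM in the 4 libraries, a log2 ratio of 0.02 at 12 dpa against unamputated, and Neat1 was at -0.64. Gm47283 and Gm10076, the next highest in level of the list, were at -0.02 and 0.22, and whether they belong to that region was not checked. Gm26917, named for its position next to Gm42418 at chr17:39843013-39846341, was at 93.3, 103, 97.4 and 71.0 CPM, a ratio of 0.14. The 13 protein-coding mitochondrial genes had a median of -0.21, with mt-Atp6 and mt-Co3 at -0.21 and -0.19. Median mitochondrial shares of all barcodes were 4.84%, 4.04%, 2.91% and 4.43% in the 4 libraries.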

How the data were processed

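The deposited values were whole-number UMI counts per gene and barcode, made with Cell Ranger 7.1.0 on mm10, per the file headers and the submitters' processing notes. The annotation, the intron setting and the cell calling are not given in the sources used here, and intronic reads would add to long genes such as Camk1d and Cdk8.

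The members and gene lists were chosen with earlier results of these data known. A barcode was kept from 500 genes and 1000 UMIs upward if no more than 10% of its UMIs were mitochondrial. Scrublet doublets were removed at 0.8% per 1000 barcodes, which marked 12.8%, 7.05%, 8.41% and 12.2% of barcodes, and its automatic threshold would have marked 2.03% to 4.07%. The 34947 cells left were clustered in scanpy 1.11.5 (2000 variable genes, 30 components, 15 neighbours, Leiden resolution 1) without the members, family genes, sex genes and mitochondrial genes. The 28 clusters formed 19 classes or unnamed clusters. A class name needed 3 of its markers in 25% of cells each and no lead by markers of another class. Part of that rule, which left cluster 16 unnamed, was added after the clusters were seen. Cells with at least 2 UMIs of 4 Y-linked genes and none of Xist were called male, and the reverse female.

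UMIs were summed per class and library and divided by all UMIs of that sum. Counts have exact Poisson intervals, and ratios of counts exact binomial ones. Genes named besides the members were those highest in mean CPM in each family and the 5 most alike to Cdk8 and Gm42418, of which 1 is not reported here. Outside this rule stand Gm26917, Med12 and Med12l, Xist and Tsix, and the genes highest at 12 dpa in every class, all named after their values were seen. Sequences were read from GENCODE M21 transcripts (GRCm38, the build also called mm10) and compared with blastn 2.17.0. On simulated counts with 200 changed genes, 100% were recovered within 0.2 log2 units in each comparison with 12 dpa. Alternatives changed the cell filter, doublets, scaling, averaging, depth range, pseudocount, class rules and weights.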

Additional observations from a re-analysis of the deposited data

Results flagged for a closer look

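For AY036118 and Polr2l, the ratio of the 12 dpa to the unamputated library went opposite ways in different cell classes by more than counting error. AY036118 was at a log2 ratio of 1.96 in neutrophil-like cells (1.38 in cluster 14 alone) and -0.47 in basal keratinocyte-like cells. Polr2l was at 1.39 in macrophage-like and -0.99 in smooth muscle-like cells. Each side is 1 library, and the difference between classes was not tested.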

How the results depend on the processing

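All log2 ratios of the 7 genes at 12 dpa over all cells kept their sign under the 11 alternatives for all cells. Cdk8 against unamputated ranged from 1.77 to 2.24, Gm42418 from 0.87 to 1.15 and Polr2l from 0.23 to 0.84. Genes past 2-fold at 12 dpa against unamputated were 5, not 3, under median-of-ratios scaling, mean over cells, cells of 5000 to 15000 UMIs, thinning to 2000 UMIs and equal class weights, where 0.896% to 2.47% of all genes were. Camk1d and Gm42418 were the added genes. With every barcode they were 4, with Camk1d at 1.08 and 0.697% of all genes. Under the stricter cell filter they were 3, but Lars2, at 0.98, fell short and Gm42418, at 1.07, passed, with 0.717% of all genes. Against 17 dpa they were 0, not 1, with every barcode, a pseudocount of 10 CPM or equal weights, with 0.786% to 1.24% of all genes. In cells of 5000 to 15000 UMIs they were 5, not 2, against 28 dpa, with 4.66% of all genes, and 1, not 2, was past 2-fold at 17 dpa against unamputated, with 7.17%. Pairs of class and gene in classes of at least 200 cells were 36 of 63, 8 of 56 and 17 of 42 against the unamputated, 17 and 28 dpa libraries, where 2.4%, 2.71% and 2.71% of all pairs were. Against 17 dpa they were 12 of 91 in cells of 5000 to 15000 UMIs, with 2.78% of all pairs, and 34 of 126 at Leiden resolution 2, with 3.24%. Under the stricter cell filter 1 of 52 family genes was past 2-fold, with 5.64% of all genes of at least 5 CPM. The class counts used fewer or other classes by construction, and otherwise the cause was not tested.

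The sign turned for small ratios of 28 dpa to unamputated. Cdk8 was at -0.18 and Lars2 at -0.11 in cells of 5000 to 15000 UMIs, where both were positive otherwise. Gm42418, at -0.01, was at 0.14 under the stricter filter, 0.14 under median-of-ratios, 0.078 as mean over cells, 0.058 thinned and 0.15 with equal weights. No paired analysis was possible because each group holds 1 library.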
